A study of Arabidopsis thaliana with 16 samples.

Results

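The first 3 h at 28 °C in wild-type Arabidopsis thaliana plants were examined by comparing the libraries labelled WT 3h with those labelled WT 0h, 4 of the 16 RNA-sequencing libraries of the study. The libraries were chosen by genotype and time alone, with no measured value. Plants were of the Columbia-0 ecotype, were raised at 18 °C in long days until the primary stem had just bolted, and were then moved to 28 °C. A further label calls the plants seedlings, although stage and tissue are those of bolting plants. The WT 0h plants were taken at the move and the WT 3h plants after 3 h. Each library was made from total RNA of inflorescences together with juvenile leaves, purified on (dT) beads, so every value is a mixture of leaf, stem and floral tissue, and fewer cells of a type and less RNA per cell cannot be told apart. The study also sampled wild type at 12 and 48 h, and sampled at the same 4 times zed1-D, a mutant whose pseudokinase gene ZED1 carries a dominant allele. All 8 groups hold 2 libraries and share the ecotype, the growth at 18 °C and the tissue. The 3 h plants are therefore both warmer and 3 h later in their day than the 0 h plants, no group was kept at 18 °C for 3 h, and the sampling clock time is not given in the sources used here, so warmth and time of day cannot be told apart in any change below.

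Arabidopsis reads warmth through several systems. Phytochrome B, a light receptor, loses its active form faster when warm, which releases the PIF growth factors, whereas stronger heat frees the heat shock factors that switch on chaperone genes. The cold-acclimation genes under the CBF factors follow temperature in the other direction, and defence through salicylic acid is known to be weaker in warm plants. The circadian clock, a loop of morning genes (CCA1, LHY and the RVE factors) and evening genes (TOC1, LUX and others), runs at nearly the same period across temperatures and sets when in the day most of these systems are active.

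The 4 libraries held 5.86 and 10.35 M counted reads at 0 h and 4.74 and 10.74 M at 3 h, for replicates 1 and 2. In all 8 groups the replicate 1 library was the shallower. Over the series, library totals ran from 4.74 to 11.39 M. Replicates of 1 group differed well beyond counting error, with a chi-square per degree of freedom of 30.8 at 0 h and 27.9 at 3 h, where counting error alone gives about 1. What a replicate was, another plant, another pool or another library of the same RNA, is not in the labels. A p-value here therefore measures no more than spread between libraries. In the main test this is the spread left once the difference shared by same-numbered libraries is taken out, estimated over all 16 libraries. Leaf and floral genes were both present: 28 of 29 leaf photosynthesis genes and 21 of 24 floral and meristem genes passed the filter on low counts. The floral stem-cell gene CLV3, its partner WUS and the petal regulator UFO did not pass it, 9 of 13 tapetum genes and 3 of 5 pollen genes did, and of 4 root hair genes none did.

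Of 19312 genes tested, 3912 (20.3%) passed an adjusted p of 0.05 in edgeR's quasi-likelihood test, in which the replicate number was a block, so that WT 3h replicate 1 was read against WT 0h replicate 1 and likewise for replicate 2. Higher levels at 3 h were found for 1806 genes (9.35%) and lower levels for 2106 (10.9%). Most changes were small: the median size among passing genes was 0.52 on the log2 scale, and 641 genes changed at least 2-fold, 275 upward and 366 downward. The median over all genes tested was 0.00. Both same-numbered pairs moved the same way in 99.7% of passing genes, against 72.4% of all genes tested, but the test itself favours such genes. Without the block only 343 genes passed (1.78%), 162 higher (0.839%) and 181 lower (0.937%), all of them among the 3912. A stricter reading is given by the 1319 genes (6.83%) that passed also without each of the 4 libraries in turn. The libraries of the groups did not overlap in CPM (counts scaled to the library's total) for 6317 genes (32.7%), of which 2728 passed the test. With 2 libraries in each group, genes without any change also often fail to overlap. That share is therefore no measure of the response, and groups that lie apart are weak support for a single gene.

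**Figure D1:**
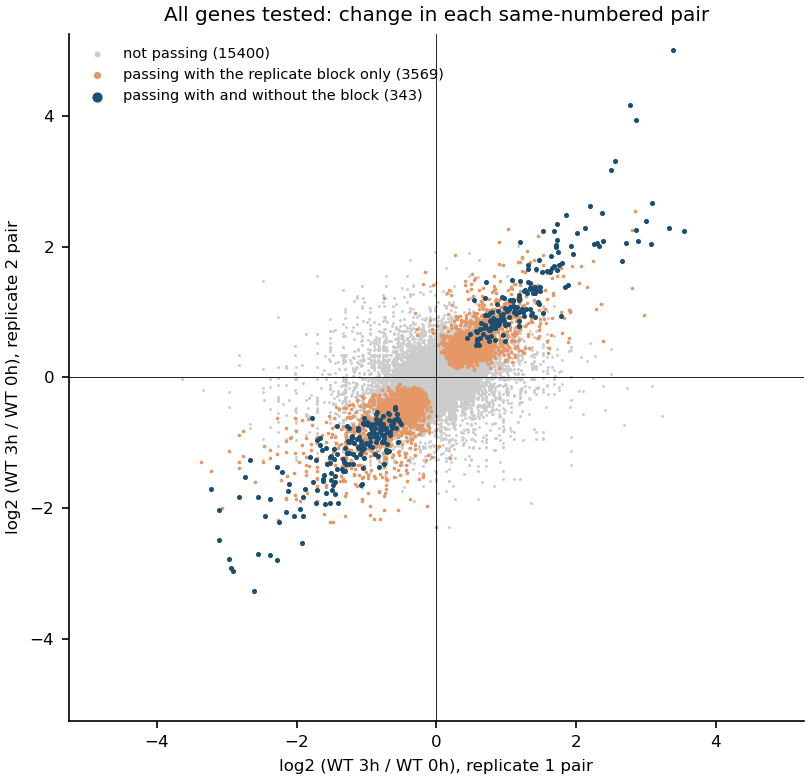
Change from 0 h to 3 h in the replicate 1 pair (x axis, log2) and in the replicate 2 pair (y axis, log2) for each of the 19312 genes tested. Grey points did not pass, orange points passed with the replicate block only, and the 343 dark blue points passed with and without it. Of the 641 passing genes that changed at least 2-fold, 210 are dark blue and the rest orange.

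Gene levels below are CPM scaled by the TMM method, fold changes are differences of log2 level (3 h minus 0 h) with their approximate standard error, and an adjusted p is Benjamini-Hochberg adjusted over all genes tested. Groups of genes are described by their counts and median, beside the 20.3% of all genes that passed and the median of 0.00. The count without the block is given beside the groups because it is far smaller.

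**Figure D2:**
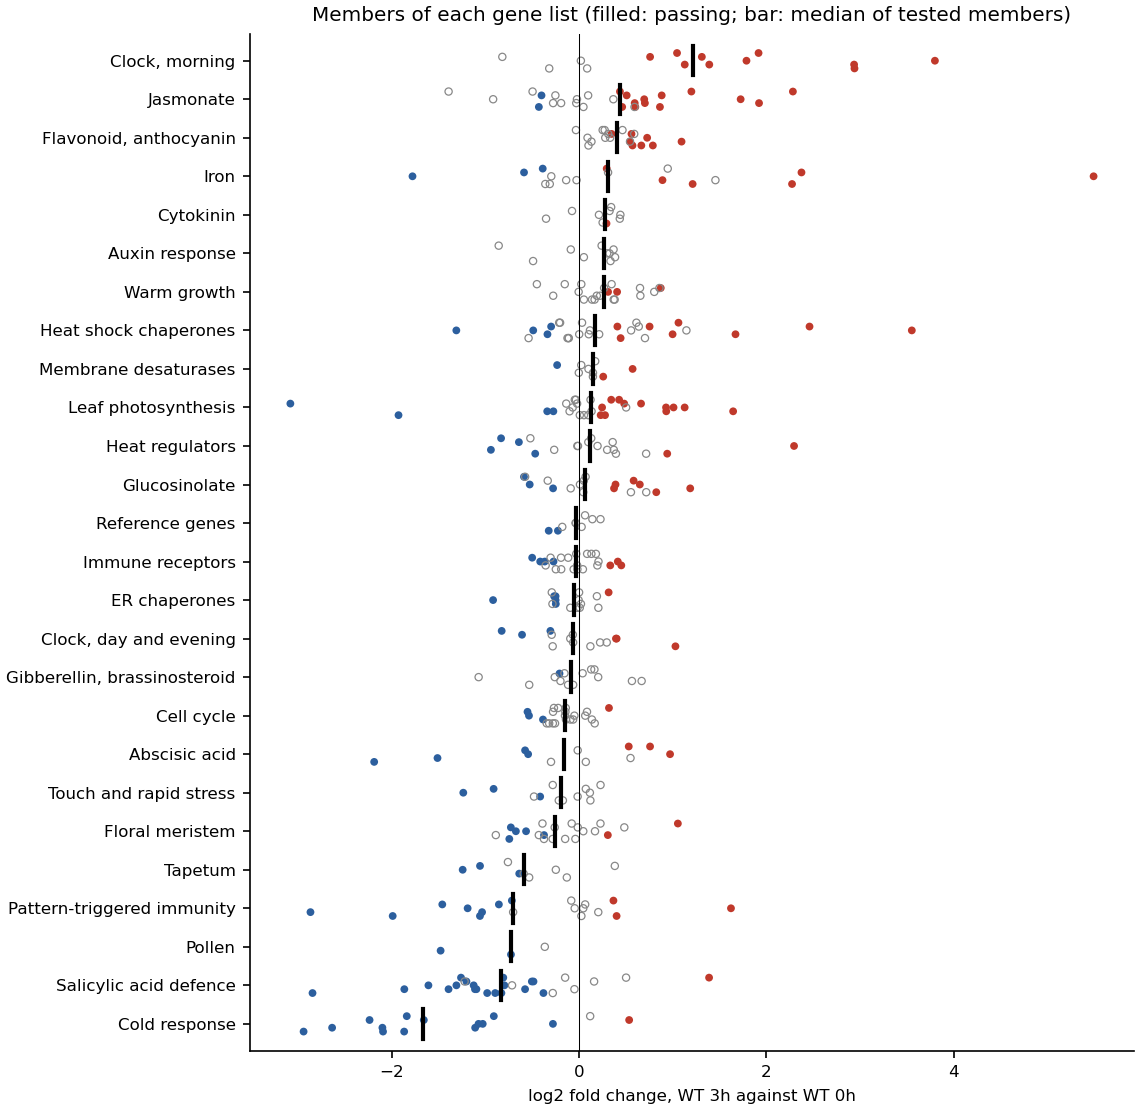
Log2 fold change of every tested member of each gene list (x axis), 1 line per list ordered by its median, with 6 members left out because a wild-type group had no read of them. Filled points passed (red higher, blue lower), open points did not, and the black bar is the median of tested members; cold response genes lie lowest (median -1.66) and morning clock genes highest (median 1.22).

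The cold response genes fell most. Of 15 tested, 13 were lower and 1 was higher at 3 h, with a median of -1.66, and 12 of the 13 also passed without each library in turn. Without the block 8 were lower and none higher. The largest fall was in GRP7 (AT2G21660), a glycine-rich RNA-binding protein that is induced by cold and also cycles with the clock. GRP7 measured 1550 and 1304 CPM at 0 h and 206 and 167 CPM at 3 h, in replicates 1 and 2. The groups lay far apart, and the fall was 7.67-fold (log2 -2.94 ± 0.08 SE, adjusted p = 1.2e-24). Its paralogue GRP8 measured 88.6 and 118 CPM at 0 h and 19.7 and 27.9 CPM at 3 h (log2 -2.10 ± 0.12, adjusted p = 7.1e-16).

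The COR genes, targets of the CBF cold factors whose products protect membranes and chloroplasts on freezing, fell in the same 3 h. COR15A, which encodes a chloroplast stroma protein, measured 466 and 578 CPM at 0 h and 124 and 162 CPM at 3 h (log2 -1.87 ± 0.08, adjusted p = 1.6e-19). Its tandem neighbour COR15B measured 257 and 316 CPM at 0 h and 43.9 and 48.5 CPM at 3 h (log2 -2.63 ± 0.10, adjusted p = 9.6e-21). In both genes all libraries at 3 h lay under all libraries at 0 h, although reads shared by the near-identical copies may have been split or lost. KIN2 measured 574 and 483 CPM at 0 h and 139 and 110 CPM at 3 h (log2 -2.09 ± 0.09, adjusted p = 2.7e-19), and its neighbour KIN1 is likewise close in sequence. RD29A, whose promoter served to define the dehydration-responsive element, measured 119 and 171 CPM at 0 h and 21.6 and 39.1 CPM at 3 h (log2 -2.24 ± 0.10, adjusted p = 3.4e-19). Among the dehydrins, LTI30 fell 3.15-fold and COR47 2.04-fold. COR47 was one whose groups overlapped, since replicate 2 was higher at both times (86.2 and 221 CPM at 0 h, 41.6 and 107 CPM at 3 h), and it passed only with the block (adjusted p = 2.5e-08 with it and 0.674 without). The exception was BAM3, a chloroplast beta-amylase that makes maltose from starch, which rose from 238 and 269 CPM to 357 and 379 CPM (log2 0.54 ± 0.08, adjusted p = 1.6e-06 with the block and 0.0718 without). CBF1, CBF2 and CBF3 themselves had too few reads to be tested. A low-temperature and salt responsive family member that carries no name in RefSeq, AT4G30650, was no list member and fell as far as GRP7, from 325 and 264 CPM to 42 and 34.7 CPM (log2 -2.94 ± 0.10, adjusted p = 1.5e-22).

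**Figure D3:**
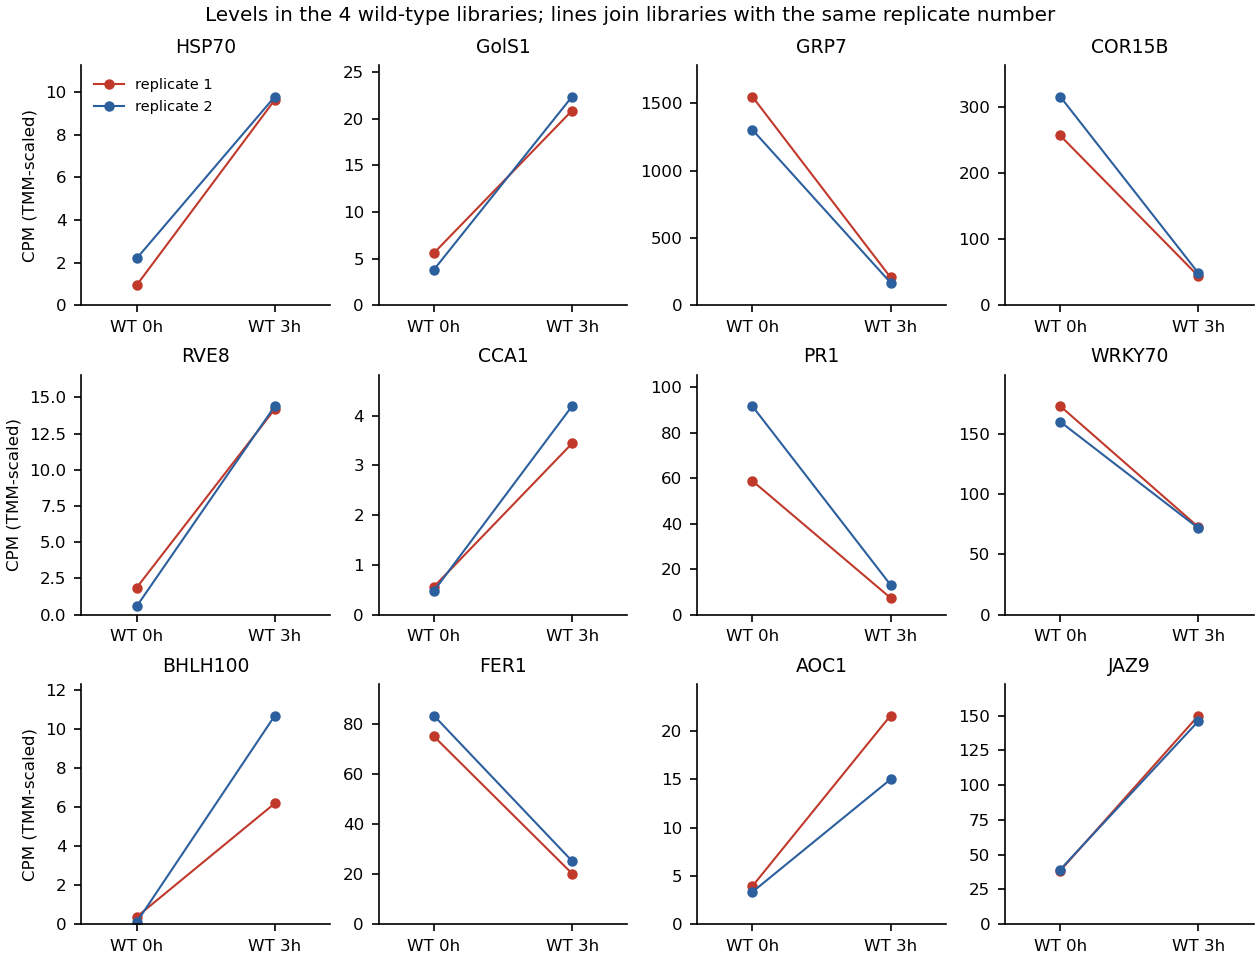
TMM-scaled CPM (y axis, from 0, its own scale for each gene) in the 4 wild-type libraries for 12 genes, with a line joining the libraries of each replicate number. For all 12 genes both 3 h libraries lie on the same side of both 0 h libraries.

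The stretch of 250 bases before the annotated start of 5 of these genes is shown because it holds motifs known from the clock, cold and heat literature. The sequences were cut from the RefSeq assembly TAIR10.1, run 5′ to 3′ towards the gene, and overlap no other annotated gene. They were chosen after their matches were seen. In GRP7 (chr2:9266558-9266807, minus strand) and GRP8 (chr4:18275217-18275466, minus strand) the capitals mark the evening element AAATATCT on either strand.
GRP7: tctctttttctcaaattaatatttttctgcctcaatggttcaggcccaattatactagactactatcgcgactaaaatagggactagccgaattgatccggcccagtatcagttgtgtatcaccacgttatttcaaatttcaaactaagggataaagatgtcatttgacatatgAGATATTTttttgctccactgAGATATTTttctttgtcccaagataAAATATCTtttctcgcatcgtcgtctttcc
GRP8: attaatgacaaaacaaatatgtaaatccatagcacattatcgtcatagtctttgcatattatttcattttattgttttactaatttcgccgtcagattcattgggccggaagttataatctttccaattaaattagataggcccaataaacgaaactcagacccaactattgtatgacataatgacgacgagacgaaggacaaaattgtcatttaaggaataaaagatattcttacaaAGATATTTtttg
The GRP7 stretch holds 3 matches, which begin 76, 55 and 30 bases upstream, and the GRP8 stretch holds 1, which begins 12 bases upstream. In COR15A (chr2:17712331-17712580, minus strand) and RD29A (chr5:21240467-21240716, plus strand) the capitals mark CCGAC, the core of the element bound by CBF and DREB factors, on either strand.
COR15A: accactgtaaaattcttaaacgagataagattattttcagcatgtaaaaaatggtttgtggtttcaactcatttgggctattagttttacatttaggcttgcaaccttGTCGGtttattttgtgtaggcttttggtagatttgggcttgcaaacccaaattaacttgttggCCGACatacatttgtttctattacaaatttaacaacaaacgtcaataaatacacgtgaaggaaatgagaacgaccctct
RD29A: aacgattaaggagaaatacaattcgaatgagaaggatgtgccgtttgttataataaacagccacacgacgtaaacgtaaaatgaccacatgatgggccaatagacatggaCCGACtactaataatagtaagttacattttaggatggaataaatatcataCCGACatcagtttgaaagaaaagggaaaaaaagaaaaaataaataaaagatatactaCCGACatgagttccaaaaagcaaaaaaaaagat
COR15A holds 2 such cores and RD29A 3. GolS1 (chr2:19370479-19370728, minus strand) rose and is described with the heat genes. In its stretch the capitals mark the pairs GAANNTTC and TTCNNGAA of heat shock element units, which overlap each other.
GolS1: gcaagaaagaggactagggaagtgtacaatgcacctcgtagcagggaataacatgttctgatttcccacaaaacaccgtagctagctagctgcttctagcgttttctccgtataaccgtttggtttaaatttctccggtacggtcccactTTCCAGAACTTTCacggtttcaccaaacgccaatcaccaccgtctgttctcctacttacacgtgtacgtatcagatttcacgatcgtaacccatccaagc
Over the 18934 promoter stretches of this length of tested protein-coding genes, AAATATCT was present in 5.02%, CCGAC in 13% and either heat shock pair in 15.9%. Of the 15 tested cold response genes, 3 held AAATATCT and 4 held CCGAC. AAATATCT was present in 8.5% of the 2093 stretches of genes lower at 3 h and in 4.73% of the 1775 of genes higher at 3 h, whereas the G-box CACGTG was present in 6.59% and 11.7%, against 7.35% of all. These are letter matches, and their part in the changes was not tested.

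Heat shock genes moved in both directions. Of 30 chaperone genes tested, 9 were higher and 4 lower at 3 h, with a median of 0.17; without the block 2 were higher and 1 lower. The largest well-measured rise was in HSP70 (AT3G12580), a cytosolic chaperone induced by heat, with 0.932 and 2.19 CPM at 0 h and 9.64 and 9.79 CPM at 3 h (log2 2.46 ± 0.27, adjusted p = 6.6e-09). AT5G51440, an HSP20-like chaperone, measured 0 and 0.38 CPM at 0 h and 1.84 and 3.73 CPM at 3 h (log2 3.55 ± 0.54, adjusted p = 5.1e-06). HSP90.1, the heat-inducible cytosolic HSP90, measured 3.54 and 6.18 CPM at 0 h and 8.27 and 21.5 CPM at 3 h (log2 1.67 ± 0.20, adjusted p = 7.4e-08 with the block and 0.379 without). These induced genes stayed low in absolute level: each was under 25 CPM in all 4 libraries. HSP17.6A, a small heat shock protein, had 0 reads in both 0 h libraries and 1 and 6 reads at 3 h, at least 2.44-fold higher against a floor of 3 reads over the group, and passed without 1 of the 4 libraries only, WT 3h replicate 1 (adjusted p from 0.072 to 0.321 without the others). The cochaperone gene HOP3 and the foldase gene ROF2 rose 2.00-fold and 1.69-fold, both with adjusted p over 0.6 without the block, and ROF2 lost its call without WT 3h replicate 2 (log2 0.40, adjusted p = 0.464). HOP3 passed with all libraries and without WT 3h replicate 2 only, with adjusted p from 0.115 to 0.18 without the others. HSP101, the disaggregase needed for acquired thermotolerance, measured 13.1 and 11.5 CPM at 0 h and 12.6 and 18.6 CPM at 3 h. Its groups overlapped and the call (log2 0.44 ± 0.16, adjusted p = 0.0413) was lost without the block, at an adjusted p of 0.608. It was also lost without WT 0h replicate 2 (log2 0.18, adjusted p = 0.671) and without WT 3h replicate 2 (log2 0.13, adjusted p = 0.808).

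Several chaperones known to be made without heat were lower or did not pass. AT3G09440, a member of the Hsp70 family, fell 2.48-fold, from 1032 and 988 CPM to 416 and 399 CPM (log2 -1.31 ± 0.07, adjusted p = 1.7e-16). HSP90.2, a constitutive cytosolic HSP90 with near-identical neighbours in the genome, fell from 479 and 465 CPM to 351 and 324 CPM (log2 -0.49 ± 0.08, adjusted p = 4.2e-05 with the block and 0.156 without). HSC70-1, a constitutive cytosolic Hsp70, measured 3722 and 2204 CPM at 0 h and 3378 and 2051 CPM at 3 h and did not pass (adjusted p = 0.238). The summed level of the 30 chaperones was 6511 and 5362 CPM at 0 h and 5356 and 4392 CPM at 3 h, lower at 3 h within each pair. These sums mostly follow a few abundant genes such as HSC70-1 and AT3G09440, whereas by count 9 members were higher and 4 lower. Other heat-inducible members did not pass, among them the small heat shock protein genes HSP18.2 (log2 -0.54) and HSP17.4 (log2 0.00) and the thermotolerance gene HSA32 (log2 0.56).

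No heat shock factor gene was called higher. Among 18 tested regulators and direct heat targets, 2 were higher (MBF1C and GolS1) and 4 lower (HSFA1E, HSFA4A, HSFA8 and HSFC1), with a median of 0.12; without the block 1 was higher and none lower. HSFA2, a factor strongly induced by heat in Arabidopsis, measured 0.932 and 3.99 CPM at 0 h and 0.918 and 4.38 CPM at 3 h (log2 0.13 ± 0.30, adjusted p = 0.812). Its value was flat within each pair. HSFA4A fell from 12.5 and 16.7 CPM to 9.18 and 7.36 CPM (log2 -0.94 ± 0.17, adjusted p = 0.0001 with the block and 0.151 without), and its call was lost without WT 3h replicate 2 (log2 -0.53, adjusted p = 0.175). MBF1C, HSFA1E, HSFA8 and HSFC1 each lost their call without at least 2 of the 4 libraries, with adjusted p from 0.0784 to 0.746. GolS1, which makes galactinol for raffinose and is a heat shock factor target, rose from 5.59 and 3.8 CPM to 20.9 and 22.4 CPM (log2 2.30 ± 0.18, adjusted p = 5.7e-12), with its groups well apart. Of 30 chaperone promoters 8 (26.7%) held either heat shock pair, against 15.9% of all. The share was higher in 4 other lists: pattern-triggered (42.1%), morning clock (35.7%), salicylic acid (33.3%) and later clock genes (28.6%). It was lower for cold response (13.3%), jasmonate (7.41%) and iron genes (5.26%).

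Of 21 warm-growth genes tested, 3 were higher and none lower, a share of 14.3% against 20.3% of all genes, with a median of 0.27. PIF4, the bHLH factor that drives growth in warmth, measured 19.4 and 20.6 CPM at 0 h and 25.5 and 20.3 CPM at 3 h and did not pass (log2 0.14 ± 0.14, adjusted p = 0.52). Its relative PIF5 rose from 18.5 and 14.1 CPM to 31 and 27.5 CPM (log2 0.87 ± 0.12, adjusted p = 1.8e-06), the 1 member that also passed without the block. PHYB, the thermosensing phytochrome, rose slightly, from 77 and 62 CPM to 97.8 and 75.7 CPM (log2 0.31 ± 0.11, adjusted p = 0.0321 with the block and 0.493 without), and it did not pass without WT 0h replicate 2 (adjusted p = 0.492) or WT 3h replicate 1 (adjusted p = 0.414). None of the 10 tested auxin response genes passed, with a median of 0.27 and values from -0.86 to 0.39. The auxin biosynthesis genes YUC8 and YUC9 and the growth gene SAUR19 had too few reads to be tested.

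Most morning clock genes were higher at 3 h. Of 14 tested, 10 were higher and none lower, and the 4 that did not pass ran from -0.82 to 0.09, with a median of 1.22; 8 were higher also without the block. RVE8 (AT3G09600), which activates evening genes, measured 1.86 and 0.57 CPM at 0 h and 14.2 and 14.4 CPM at 3 h (log2 3.80 ± 0.30, adjusted p = 5.7e-12). CCA1 measured 0.559 and 0.475 CPM at 0 h and 3.44 and 4.19 CPM at 3 h (log2 2.94 ± 0.46, adjusted p = 8.4e-06). LHY, its partner in repressing evening genes, measured 0.186 and 0.856 CPM at 0 h and 4.82 and 4.94 CPM at 3 h (log2 2.94 ± 0.40, adjusted p = 8e-07). In all of these the groups were far apart, though the 0 h levels rest on few reads. LNK2, a coactivator that works with RVE8, rose 3.78-fold, LNK1 2.48-fold, RVE1 3.45-fold, RVE4 2.07-fold and the flowering repressor CDF2 2.62-fold, all with and without the block.

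The later clock genes went both ways, with 3 higher and 3 lower of 14 and a median of -0.06; without the block 1 was lower and none higher. TOC1, the evening repressor of CCA1 and LHY, did not pass, at 153 and 164 CPM at 0 h and 146 and 157 CPM at 3 h (log2 -0.07 ± 0.08, adjusted p = 0.602). LUX, the DNA-binding part of the evening complex, rose within each pair, from 34.3 to 65.7 CPM in replicate 1 and from 60.5 to 128 CPM in replicate 2 (log2 1.03 ± 0.10, adjusted p = 7.1e-10 with the block and 0.497 without). ELF4, a small protein of the same complex, fell 1.52-fold with overlapping groups (adjusted p = 0.00121 with the block and 0.645 without it). It also lost its call without WT 0h replicate 2 (log2 -0.48). FKF1, a blue-light receptor of the afternoon, fell from 26.5 and 26 CPM to 12.9 and 15.8 CPM (log2 -0.82 ± 0.15, adjusted p = 7.2e-05 with the block and 0.049 without). The evening element was present in 6 of the 14 promoter stretches of this list (42.9%).

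Wild-type levels at 12 and 48 h, set beside those at 0 and 3 h with which they share the scaling, followed different courses. RVE8 stood at a mean of 14.3 CPM at 3 h, 3.71 CPM at 12 h and 6.01 CPM at 48 h, against 1.22 CPM at 0 h. LHY stood at 0.521, 4.88, 1.45 and 9.36 CPM at 0, 3, 12 and 48 h, so it was highest at 48 h. CCA1 stood at 0.517, 3.82, 0.835 and 3.21 CPM at the same times. In each of these morning genes the 48 h libraries lay above the 0 h libraries. GRP7 stood at 1427 CPM at 0 h, 187 CPM at 3 h, 732 CPM at 12 h and 1084 CPM at 48 h. COR15B stood at 287, 46.2, 38.9 and 81.8 CPM at the same 4 times, and in both genes the 48 h libraries lay under the 0 h libraries. The 48 h samples come 2 whole days after the 0 h samples, so these 2 groups share a clock time if sampling kept to schedule, which the labels do not state.

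**Figure D4:**
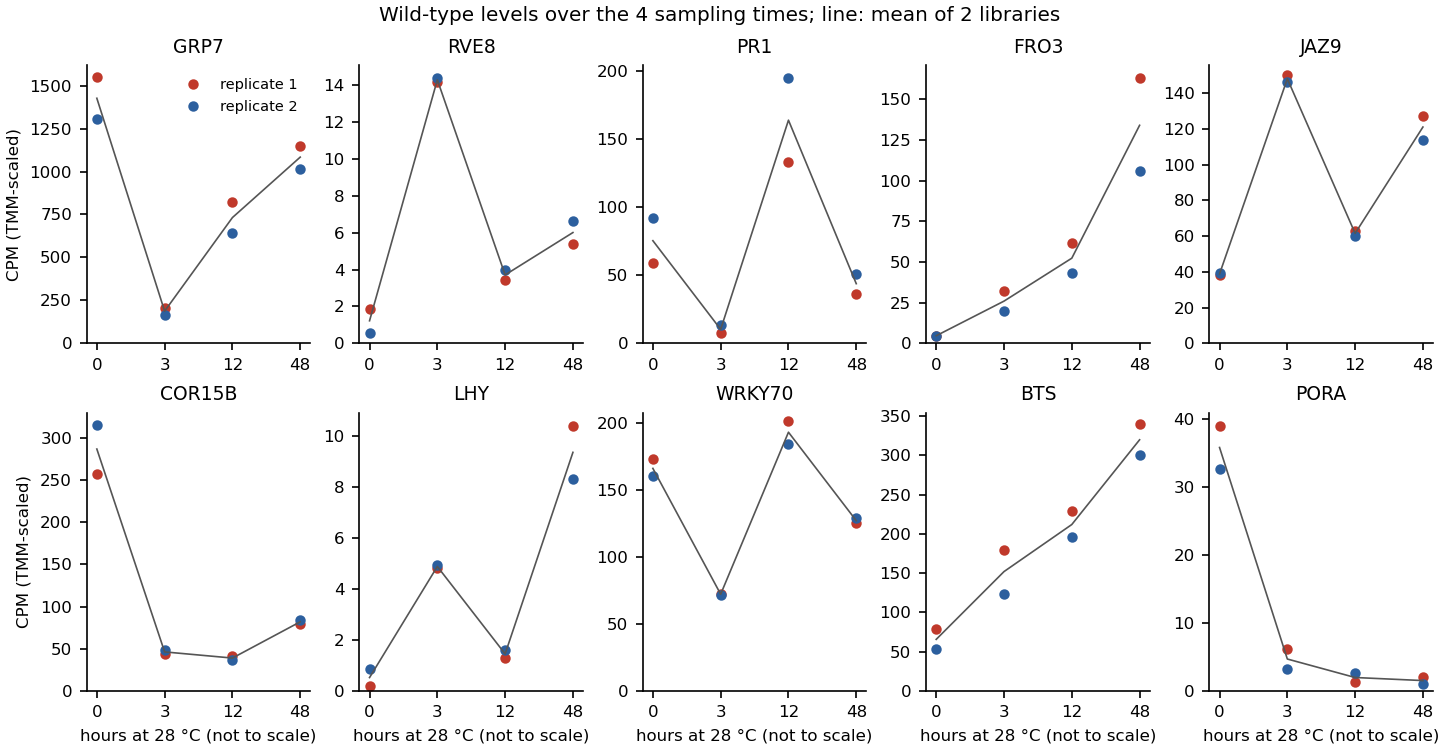
TMM-scaled CPM (y axis, from 0) in each wild-type library at 0, 3, 12 and 48 h at 28 °C (x axis, not to scale) for 10 genes, with the line through the mean of 2 libraries. GRP7, PR1 and WRKY70 are lower at 3 h than at 12 h, RVE8 is highest at 3 h and LHY at 48 h. FRO3 and BTS are higher at each later time, and PORA falls and remains low.

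Salicylic acid defence genes were lower at 3 h. Of 27 tested, 19 were lower and 1 was higher, with a median of -0.83; 13 of the 19 also passed without each library in turn, and 8 were lower without the block. PR1 (AT2G14610), the secreted protein used as the marker of this defence, measured 58.9 and 91.8 CPM at 0 h and 7.35 and 13.1 CPM at 3 h. The fall was 7.18-fold with groups far apart (log2 -2.84 ± 0.12, adjusted p = 5.2e-20 with the block and 0.00584 without). PR2, a beta-1,3-glucanase, fell from 129 and 118 CPM to 54.2 and 59.4 CPM (log2 -1.09 ± 0.09, adjusted p = 4.7e-12). BG3, a glucanase of the same family and not a list member, fell from 57.6 and 39.6 CPM to 9.64 and 11 CPM (log2 -2.11 ± 0.14, adjusted p = 2.7e-14).

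The regulators of this branch were mostly lower as well. The transcription factor WRKY70 fell from 173 and 160 CPM to 72.6 and 71.7 CPM (2.3-fold, adjusted p = 7.9e-13), and its close relative WRKY54 fell 2.39-fold. PAD4, a lipase-like partner of EDS1, fell from 34.9 and 38 CPM to 17.9 and 23.1 CPM (log2 -0.80 ± 0.11, adjusted p = 1.2e-06). EDS1 itself fell 1.49-fold and overlapped between groups, with an adjusted p of 0.00165 with the block, 0.624 without it and 0.129 without WT 0h replicate 2. SARD1, which activates salicylic acid synthesis genes, fell 1.86-fold (adjusted p = 3e-06 with the block and 0.0627 without), while ICS1, the synthesis enzyme it activates, did not pass at 22.6 and 27.9 CPM at 0 h and 23 and 32.7 CPM at 3 h (log2 0.16 ± 0.11, adjusted p = 0.32). ALD1, which makes the precursor of the mobile signal pipecolic acid, fell 3.64-fold from under 3 CPM, but did not pass without WT 3h replicate 2 (log2 -0.94, adjusted p = 0.3) or without the block (adjusted p = 0.0561). NIMIN2, which binds the receptor NPR1, fell within each pair, from 6.9 to 1.38 CPM and from 22.1 to 7.55 CPM (log2 -1.61 ± 0.20, adjusted p = 8.2e-08 with the block and 0.583 without). The 1 member that was higher, the glutaredoxin GRX480, was low and overlapped, at 0.559 and 1.33 CPM at 0 h and 0.459 and 4.01 CPM at 3 h, and lost its call without WT 0h replicate 2 (adjusted p = 0.53) or WT 3h replicate 2 (log2 0.04). LURP1, a gene outside the list that is known for late upregulation on infection with an oomycete, fell 4.60-fold, from 405 to 83.8 CPM in replicate 1 and from 923 to 204 CPM in replicate 2 (adjusted p = 2.2e-20 with the block and 0.153 without).

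Pattern-triggered immunity genes, which act from the cell-surface receptors to the kinases and factors below them, were mostly lower where they passed. Of 19 tested, 9 were lower and 3 higher, with a median of -0.70; 6 were lower and none higher without the block. FLS2, the flagellin receptor, fell from 40.8 and 26.8 CPM to 21.8 and 11.9 CPM (log2 -1.06 ± 0.14, adjusted p = 6.4e-07 with the block and 0.284 without). EFR, the receptor of bacterial EF-Tu, fell from 9.14 and 7.79 CPM to 4.13 and 4.01 CPM (log2 -1.03 ± 0.22, adjusted p = 0.00049). Downstream of them, the kinase gene MPK3 fell 1.64-fold (adjusted p = 3.3e-08 with the block and 0.171 without), its relative MPK11, chosen by the size of its change, fell from 14.2 and 12.2 CPM to 2.53 and 3.17 CPM, the factor WRKY33 fell 1.81-fold and the camalexin enzyme gene PAD3 fell 2.75-fold. FRK1, a kinase gene used as a marker of pattern recognition, had 10 and 8 reads at 0 h and 0 reads in both 3 h libraries, at least 5.73-fold lower against a floor of 3 reads over the group; its adjusted p was 0.00073, and 0.0551 without WT 3h replicate 2. WRKY29 was higher, at 0.559 and 1.14 CPM at 0 h and 3.67 and 2.61 CPM at 3 h (log2 1.62 ± 0.42, adjusted p = 0.00465 with the block and 0.0806 without). The W-box core TTGAC was present in 16 of the 19 promoter stretches (84.2%) and in 44.6% of all stretches.

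Of 23 immune receptor genes tested, 3 were higher and 4 lower, with a median of -0.03, none passed without the block, and none passed without each library in turn. ZED1 (AT3G57750), the pseudokinase gene with a dominant allele in zed1-D, whose level therefore checks no label, measured 6.71 and 12.1 CPM at 0 h and 4.13 and 11.7 CPM at 3 h and did not pass (log2 -0.19 ± 0.20, adjusted p = 0.56). ZAR1 (AT3G50950), the resistance protein that works with ZED1, measured 141 and 166 CPM at 0 h and 111 and 128 CPM at 3 h (log2 -0.37 ± 0.10, adjusted p = 0.00582 with the block, 0.476 without it and 0.0937 without WT 0h replicate 2). SNC1 (AT4G16890), a resistance gene known for temperature-sensitive autoimmune alleles, measured 130 and 146 CPM at 0 h and 125 and 145 CPM at 3 h (log2 -0.03 ± 0.08, adjusted p = 0.859). ADR1-L2, a helper receptor, fell 1.41-fold (adjusted p = 0.00106 with the block, 0.151 without it and 0.0522 without WT 0h replicate 1). At 12 h PR1 stood at 133 and 195 CPM and WRKY70 at 201 and 184 CPM in wild type. In both genes the 12 h libraries lay above all 3 h and all 0 h libraries. At 48 h PR1 stood at 36.4 and 51.2 CPM and WRKY70 at 125 and 129 CPM, under all their 0 h libraries.

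Jasmonate genes were mostly higher. Of 27 tested, 13 were higher and 2 lower, with a median of 0.44; 11 of the 13 also passed without each library in turn, and 5 were higher without the block. In biosynthesis, AOC1, an allene oxide cyclase, rose from 3.92 and 3.33 CPM to 21.6 and 15 CPM (log2 2.28 ± 0.19, adjusted p = 1.2e-11). The allene oxide synthase AOS rose from 112 and 82.1 CPM to 200 and 156 CPM (log2 0.88 ± 0.09, adjusted p = 5.6e-09 with the block and 0.12 without), OPR3 rose 1.62-fold (adjusted p = 1.8e-06 with the block and 0.1 without) and LOX2 1.38-fold with groups that overlapped (adjusted p = 1.6e-05 with the block and 0.77 without). In the same pathway JAR1, which joins the hormone to isoleucine, was lower with overlapping groups (log2 -0.40, adjusted p = 0.00162 with the block, 0.77 without it and 0.0837 without WT 3h replicate 2), and the lipoxygenase genes LOX3 and LOX4 did not pass, at -0.28 and 0.37.

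In jasmonate signalling, the repressor gene JAZ9 rose from 38.4 and 39.2 CPM to 150 and 146 CPM (log2 1.92 ± 0.09, adjusted p = 8.7e-19). JAZ5, a repressor of the same family, rose from 4.66 and 3.61 CPM to 16.1 and 11.7 CPM (log2 1.73 ± 0.21, adjusted p = 6.5e-08). MYC2, the activator they repress, rose from 58.2 and 75.6 CPM to 133 and 175 CPM (2.3-fold, adjusted p = 1.4e-13 with the block and 0.0168 without). The storage protein genes VSP1 and VSP2, near-identical neighbours, were split: VSP1 fell from 418 and 311 CPM to 321 and 224 CPM, and VSP2 rose from 302 and 206 CPM to 472 and 349 CPM. Since reads of such copies are hard to place, that split is uncertain, and neither call held without the block (adjusted p = 0.71 for VSP1 and 0.364 for VSP2). The ethylene-linked branch did not pass, with PDF1.2A, ERF1 and ORA59 between -0.92 and 0.05.

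Among iron genes, those that passed as higher belong to the deficiency response and those that passed as lower are ferritins. The transporter OPT3 was only slightly higher (log2 0.30). Its call was lost without WT 0h replicate 2 (log2 0.19) or WT 3h replicate 1 (log2 0.24). Of 19 tested, 7 were higher and 3 lower, with a median of 0.31. The other 9 did not pass, and they included further genes of the deficiency response, such as bHLH genes of the BHLH100 group. Without the block 4 were higher and 1 lower. BHLH100, a factor of the group induced by low iron, measured 0.373 and 0.0951 CPM at 0 h and 6.2 and 10.7 CPM at 3 h, the largest rise of the list (log2 5.49 ± 0.44, adjusted p = 5e-12), though from 2 and 1 reads at 0 h. BHLH38 had 0 reads in both 0 h libraries and 2 and 7 reads at 3 h, at least 3.14-fold higher, and did not pass without either replicate 2 library (adjusted p = 0.213 and 0.065). FRO3, a mitochondrial ferric reductase, rose from 4.66 and 4.56 CPM to 32.1 and 19.7 CPM (log2 2.38 ± 0.17, adjusted p = 2.4e-13). AT2G30766, listed with the iron-deficiency genes, rose from 6.71 and 5.7 CPM to 30.3 and 28.9 CPM (log2 2.27 ± 0.16, adjusted p = 1.7e-13).

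BTS, an E3 ligase that restrains the deficiency response, and PYE, a factor of the same response, rose 2.32-fold and 1.86-fold, PYE with an adjusted p of 0.00032 with the block and 0.0552 without. The ferritin genes, which encode the iron storage protein of plastids, were lower: FER1 fell from 75 and 83.3 CPM to 20.2 and 25.2 CPM (log2 -1.78 ± 0.11, adjusted p = 6.9e-15), and FER3 fell 1.5-fold (adjusted p = 3.4e-05 with the block and 0.228 without). The root uptake genes IRT1 and FRO2 and their regulator FIT did not pass, at -0.03, -0.30 and -0.36. Later in wild type FRO3 stood at 61.7 and 43 CPM at 12 h and at 163 and 106 CPM at 48 h, and BTS at 229 and 196 CPM and then 340 and 300 CPM, so both were above their 3 h values at each later time.

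Leaf photosynthesis genes were more often higher than lower, 12 against 4 of 28, with a median of 0.13, and 3 and 1 without the block. RBCS2B, a small subunit of Rubisco with near-identical copies, rose from 2336 and 2187 CPM to 4982 and 4902 CPM (log2 1.13 ± 0.08, adjusted p = 7.3e-14). Rubisco activase, RCA, rose within each pair, from 3411 to 6981 CPM and from 2013 to 3980 CPM (log2 1.01 ± 0.08, adjusted p = 2.5e-12 with the block and 0.339 without). CAO, which makes chlorophyll b, rose 1.91-fold. Antenna genes went opposite ways, with LHCB2.1 up from 189 to 623 CPM and from 66.4 to 196 CPM (log2 1.65 ± 0.10), and LHCB1.1 down from 2307 to 596 CPM and from 1105 to 297 CPM (log2 -1.93 ± 0.08); both lost their call without the block, and LHCB1.1 has near-identical copies. PORA, a protochlorophyllide reductase abundant in dark-grown tissue, fell from 39 and 32.6 CPM to 6.2 and 3.17 CPM (log2 -3.08 ± 0.19, adjusted p = 1.1e-14) and had 2.62 CPM or less in each wild-type library at 12 and 48 h. The summed level of the leaf list was 83615 and 60979 CPM at 0 h and 91484 and 71718 CPM at 3 h, higher within each pair, and the part of tissue makeup in these changes was not tested.

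Flavonoid and anthocyanin genes were higher or did not pass: 8 of 20 were higher and none lower, with a median of 0.41, and 1 was higher without the block. That 1 was DFR, which commits flavonoids to anthocyanin and rose from 69.9 and 74.8 CPM to 125 and 126 CPM (log2 0.79 ± 0.09, adjusted p = 1.6e-08). CHS, the entry enzyme, rose within each pair, from 496 to 784 CPM and from 249 to 396 CPM (log2 0.67 ± 0.08, adjusted p = 6.4e-08 with the block and 0.772 without), and PAP2, a MYB activator of anthocyanin genes, rose 2.14-fold from under 5 CPM and did not pass without WT 3h replicate 2 (adjusted p = 0.131). Glucosinolate genes went both ways, with 6 of 18 higher and 3 lower, and 1 higher and none lower without the block. CYP79B3, on the branch from tryptophan, rose from 37.5 and 32.7 CPM to 85.2 and 74.7 CPM (log2 1.19 ± 0.10, adjusted p = 6.5e-12), and CYP79F1, on the branch from methionine, fell 1.5-fold (adjusted p = 1.9e-07 with the block and 0.0882 without).

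Abscisic acid genes went both ways, with 3 of 12 higher, 4 lower and a median of -0.16, and none passing without the block. RAB18, a dehydrin that follows the hormone, fell from 9.51 to 0.918 CPM and from 20.8 to 5.03 CPM (log2 -2.19 ± 0.22, adjusted p = 1.2e-09 with the block and 0.142 without). NCED3, the synthesis enzyme, fell 2.85-fold from under 3 CPM with a call that was lost without 3 of the 4 libraries (adjusted p from 0.0677 to 0.188), and CYP707A2, an enzyme that breaks the hormone down, rose 1.96-fold. Of 12 touch and rapid stress genes 3 were lower and none higher. The 1 that was lower also without the block was TCH4, a cell-wall xyloglucan enzyme gene that responds to touch, which fell from 9.88 and 13.5 CPM to 5.51 and 5.03 CPM (log2 -1.23 ± 0.18, adjusted p = 4e-06).

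Endoplasmic reticulum chaperones were 5 lower and 1 higher of 16, with a median of -0.05 and none passing without the block. BIP1 did not pass at 324 and 423 CPM at 0 h and 322 and 416 CPM at 3 h (adjusted p = 0.92), and the inducible BIP3 fell from 6.15 and 8.84 CPM to 2.76 and 4.94 CPM (log2 -0.92 ± 0.27, adjusted p = 0.0135 with the block and 0.611 without), a call lost without WT 0h replicate 2 (0.0939) or WT 3h replicate 2 (0.167). Membrane desaturases had 2 of 9 higher and 1 lower, cytokinin response genes 1 of 9 higher, gibberellin and brassinosteroid genes 1 of 14 lower, and cell cycle genes 1 of 22 higher and 3 lower, beside the 20.3% of all genes that passed. Without the block 1 desaturase was higher, and in the other 3 of these lists none passed. Of 9 reference genes 2 were lower and none higher, with a median of -0.03, and none passed without the block.

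Among floral and meristem genes 5 of 21 were lower and 2 higher, with a median of -0.26, and none passed without the block. AP1, which specifies floral meristems, fell from 18.5 and 23.7 CPM to 11.3 and 13.9 CPM (log2 -0.74 ± 0.16, adjusted p = 0.00058), with an adjusted p of 0.0642 without WT 0h replicate 2. SOC1, a promoter of flowering, fell within each pair, from 45.9 to 30.1 CPM and from 81.3 to 55.4 CPM (log2 -0.56 ± 0.10). FLC, the repressor upstream of it, rose from 3.92 and 3.61 CPM to 10.1 and 6.62 CPM (log2 1.06 ± 0.27, adjusted p = 0.00361), but lost the call without WT 0h replicate 2 (adjusted p = 0.118) or WT 3h replicate 1 (adjusted p = 0.0725). The meristem gene STM did not pass (log2 0.23 ± 0.11, adjusted p = 0.159). Tapetum genes had 3 of 9 lower and none higher (median -0.59), with MS2, a gene of the pollen wall, at 12.3 and 11.6 CPM and then 8.04 and 7.55 CPM, and AT5G07230 down 2.36-fold, the 1 tapetum gene that was lower also without the block. Of 3 tested pollen genes VGD1 and VGDH1, near-identical pectin methylesterases, were lower, neither of them without the block. MS2, VGD1 and VGDH1 did not pass without 2, 2 and 3 of the 4 libraries, with adjusted p from 0.0884 to 0.439. The summed tapetum level was 76.8 and 75 CPM at 0 h and 60.8 and 54.3 CPM at 3 h, and the pollen sum 24.2 and 29.3 CPM and then 14 and 21.6 CPM. The part of a different share of anther tissue in the samples was not tested.

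The genes with the largest changes, among those whose mean log2 CPM reached 2, with groups apart and pairs alike in direction, included 12 in each direction, of which most have been given. The other risers were AT2G27420, a cysteine proteinase family member, from 1.31 and 1.33 CPM to 8.49 and 14 CPM (log2 3.18 ± 0.29, adjusted p = 1.4e-10), and BBX16, a B-box protein gene, from 0.746 and 2.66 CPM to 6.89 and 16.7 CPM (log2 2.73 ± 0.27, adjusted p = 7.1e-10 with the block and 0.108 without). A pair of genes of carbohydrate polymers also rose, CSLA01, a cellulose synthase-like gene, 5.51-fold from 27 and 31 CPM to 141 and 178 CPM, and GBSS1, the granule-bound synthase of amylose, 4.55-fold from 7.65 and 7.6 CPM to 38.8 and 32.2 CPM. The uncharacterized AT4G19430 and AT4G24700 rose 6.10-fold and 4.61-fold. DRM2, a dormancy and auxin associated gene, fell 4.76-fold, from 158 and 101 CPM to 32.8 and 21.3 CPM.

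The zed1-D plants were raised and moved in the same way, and the comparison asks where the wild-type response differs from theirs. In the same model, the response of zed1-D from 0 h to 3 h differed from that of wild type in 1093 genes (5.66%), 832 of them with the higher change in zed1-D and 261 with the lower; without the block the counts were 198 and 7. In the salicylic acid list 25 of 27 genes differed, all with the higher change in zed1-D. PR1 did not fall there, at 111 and 176 CPM at 0 h and 135 and 196 CPM at 3 h, against a 7.18-fold fall in wild type (difference of log2 changes 3.05, adjusted p = 2.2e-17). In the jasmonate list 8 genes had the smaller rise or lower change in zed1-D and 2 the higher one. Since only 7 genes in all had the lower change without the block, these 8 did not all pass there. The differences by list and gene given here and below are with the block. JAZ9 rose in zed1-D from 49.5 and 50 CPM to 111 and 105 CPM, less than in wild type (difference -0.81, adjusted p = 9.6e-06).

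In the other large lists the genotypes were set side by side. Of 15 cold response genes 3 differed (COR15A, KIN2 and RD29A), each with the smaller fall in zed1-D, and of 28 clock genes none did, with RVE8 at log2 3.80 in wild type and 4.03 in zed1-D (adjusted p of the difference = 0.931). GRP7 changed by -2.94 in wild type and -2.98 in zed1-D (adjusted p = 0.938). Of 30 chaperones 5 differed, all with the higher change in zed1-D, among them HSP90.1 (difference 1.53, adjusted p = 0.00019), whereas GolS1 measured a smaller change, from 6.27 and 7.58 CPM to 9.54 and 9.89 CPM (difference -1.85, adjusted p = 7.4e-06). A p that misses the threshold does not show that the genotypes responded alike.

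**Figure D5:**
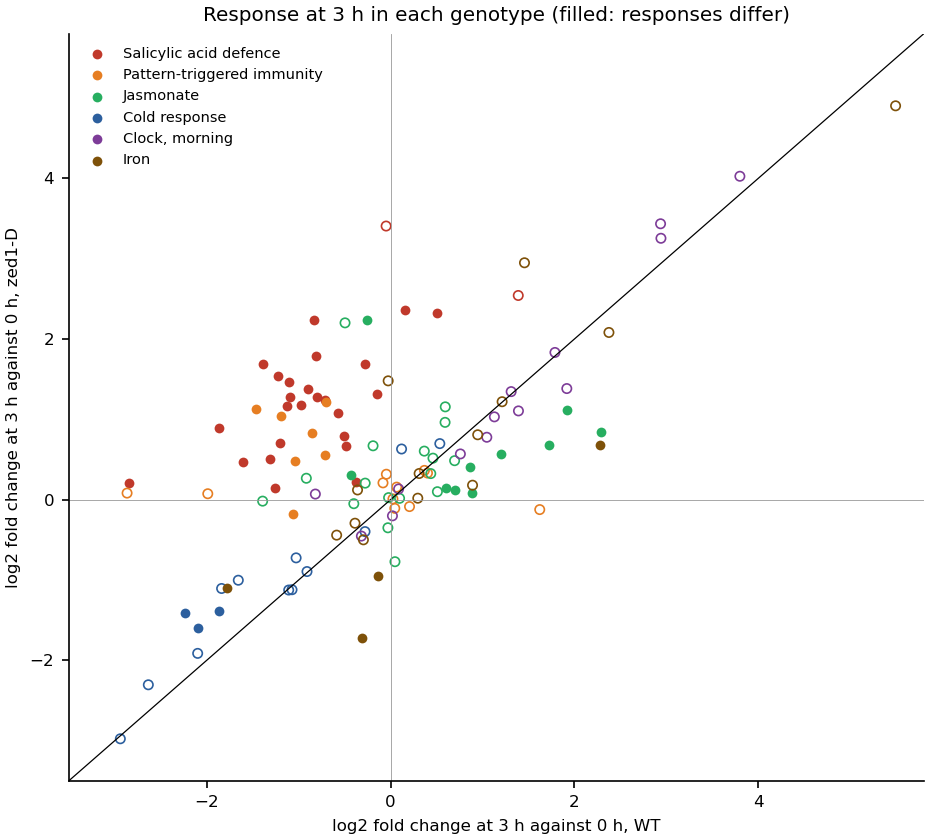
Log2 fold change from 0 h to 3 h in wild type (x axis) and in zed1-D (y axis) for members of 6 gene lists, with 3 members left out because a group had no read. Filled points are genes whose responses differ between genotypes at an adjusted p under 0.05, open points are the others, and the diagonal marks equal responses; salicylic acid genes (red) lie above it and clock genes (purple) near it.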

How the data were processed

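Whole inflorescences with juvenile leaves gave 16 RNA-sequencing libraries, 2 for each of 8 groups of genotype and time. Each deposited file lists, per the file headers, the counts of reads mapped uniquely to every gene, and an RPKM value that the authors made from them. The RPKM values were only checked against the counts. A gene not listed in a library was taken as 0. Reads were placed on TAIR10, as the submitters' processing notes name it. No aligner, counter or strand setting is given in the sources used here. Among 25444 identifiers, 25216 matched a RefSeq locus (assembly TAIR10.1), which gave names, coordinates and promoter stretches. Since the strand setting is unknown, overlapping genes on opposite strands cannot be told apart.

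Counts were fitted with edgeR 4.0.16 (limma 3.58.1, R 4.3.3; TMM scaling, filterByExpr, quasi-likelihood test) over all 16 libraries with 1 mean per group and the replicate number as a block, leaving 7 residual degrees of freedom. Tests are two-sided, with Benjamini-Hochberg adjustment and a threshold of 0.05. Standard errors are the log2 change divided by the root of F. The same-numbered libraries were treated as pairs because of their titles and because their deviations from the group means correlated in all 28 pairs of groups, from 0.53 to 0.71. All replicate 1 libraries are shallower than all replicate 2 libraries, so the block also takes up depth, and the coefficient of variation was 5.67% with it and 22.6% without. The scripts were tested on simulated data.

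The block, the 27 gene lists (478 genes, 438 tested) and the alternatives were chosen with earlier results of these data known. Named genes are list members, ZED1, ZAR1, SNC1 and PR1, and the 12 largest changes in each direction of genes that passed, had a mean log2 CPM of 2 or more, and had groups apart and pairs alike in direction. Medians of lists did not move at the printed precision when genes with no read in a group were set to their bound. Alternatives were no block, wild-type or compared libraries only, DESeq2 1.42.0 (with its NA p-values left out), RLE scaling, no filter, a mean count of 10, a minimum log2 change of 1, counts thinned to the smallest library, organelle genes left out, and each library left out in turn. Leaving 1 library in a group assumes that it varies like the other groups.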

Additional observations from a re-analysis of the deposited data

Results flagged for a closer look

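Of the genes named above, 49 drew attention because the response of zed1-D from 0 h to 3 h differed from that of wild type in edgeR's quasi-likelihood test of the difference itself, and the values here are the zed1-D change minus the wild-type change on the log2 scale. That test had the replicate block. Without the block only 7 of all genes tested passed with the lower change in zed1-D, so the negative values below did not all pass there. Among salicylic acid defence genes the difference was 3.05 for PR1, 2.37 for PR2, 1.82 for PR5, 1.91 for WRKY70, 1.41 for WRKY54, 1.66 for EDS1, 2.07 for PAD4, 2.27 for SARD1, 2.20 for ICS1, 2.08 for NIMIN2 and 2.75 for ALD1. Among pattern-triggered genes it was 0.88 for FLS2, 1.52 for EFR, 1.68 for WRKY33, 1.27 for MPK3 and 2.58 for PAD3, and FRK1, which had no read in wild type at 3 h, is given by its adjusted p of 4.6e-05 alone. Among immune receptors it was 0.84 for ZAR1, 0.40 for SNC1 and 1.2 for ADR1-L2.

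For heat genes the difference was 1.53 for HSP90.1, 0.81 for HSP101, 0.68 for AT3G09440, 1.17 for HSFA4A and -1.85 for GolS1. For 3 cold response genes, each of which fell less in zed1-D, it was 0.48 for COR15A, 0.49 for KIN2 and 0.83 for RD29A. Jasmonate genes gave -1.44 for AOC1, -0.81 for AOS, -0.81 for JAZ9, -1.05 for JAZ5, -0.64 for MYC2, 0.74 for VSP1 and -0.59 for VSP2, iron genes gave -1.59 for AT2G30766 and 0.67 for FER1, and the antenna gene LHCB1.1 and the glucosinolate gene CYP79B3 gave -0.90 and -0.56. In the endoplasmic reticulum list it was 0.38 for BIP1 and 2.92 for BIP3, and in the floral, tapetum and pollen lists it was -1.48 for FLC, 1.54 for MS2, 1.37 for VGD1 and 4.62 for VGDH1. Genes outside the lists that were named for the size of their wild-type change gave 1.92 for AT4G19430, 2.01 for LURP1, 2.32 for BG3 and 2.95 for MPK11. No group here has the 4 samples needed to look for a library that stands apart.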

How the results depend on the processing

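The counts of passing genes depended most on the replicate block, which pairs libraries of the same number. Without it, wild type at 3 h against 0 h gave 343 genes in place of 3912, and the difference between genotypes gave 205 in place of 1093, the latter an alternative chosen after seeing the data. With the 4 compared libraries alone the count was 6111, and with a minimum log2 change of 1 it was 641; for the genotype difference that minimum gave 619 and DESeq2 716. Leaving out 1 library at a time gave 1922 to 2966 genes for wild type, fewest without the deeper replicate 2 libraries (1922 without WT 3h replicate 2 and 2194 without WT 0h replicate 2), and 638 to 924 for the genotype difference. Leaving out the deeper libraries also lowers the depth, so depth and the library itself cannot be told apart there. The other alternatives (wild-type libraries only, RLE scaling, other filters, thinned counts, organelle genes left out, DESeq2 for wild type) kept the count within 1.5 times.

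Of 133 named genes 113 passed, 57 of them also without the block and 83 without each library in turn. RLE scaling, no filter and leaving out organelle genes changed no call among them. A direction turned only in genes that did not pass: over the fits that left out 1 library, HSFA2 ran from -0.54 to 0.60, SNC1 from -0.13 to 0.03, ERF1 from -4.58 to 0.39, ORA59 from -0.14 to 0.94, IRT1 from -0.33 to 0.26, HSP18.2 from -0.68 to 0.09 and HSP17.4 from -1.18 to 1.19. In thinned counts SNC1 was 0.00, ORA59 was -0.97 and HSP17.4 was -2.35; HSP17.4 was also -0.00 with RLE scaling, -0.01 with no filter and -0.01 without organelle genes. The cause was not tested. Genes under about 1 CPM rest on fewer than 10 reads in the shallower libraries.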
